A study of Mus musculus with 12 samples.

Results

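The genes examined here are 10 secretory genes of the lung airway and alveolus, taken as a list of names: the surfactant proteins *Sftpa1*, *Sftpb*, *Sftpc* and *Sftpd*, the surfactant-processing protease *Napsa*, the secretoglobins *Scgb1a1*, *Scgb3a1* and *Scgb3a2*, and the airway BPI-fold genes *Bpifa1* and *Bpifb1*. Of these 10, 6 had a row in the table of 15687 genes: *Sftpb*, *Sftpc*, *Sftpd*, *Napsa*, *Scgb3a1* and *Bpifb1*. The other 4 (*Sftpa1*, *Scgb1a1*, *Scgb3a2* and *Bpifa1*) had no row in the table analysed here, so no level is given for them. RNA was sequenced from 12 subcutaneous tumors of mTC11 (mTc11 in the labels), a mouse lung cancer cell line, grown in male C57BL6/J mice that were 8 weeks old at injection and whose tumors were taken on day 24, after cells had been placed under the skin in growth factor-reduced Matrigel. The CTL group (n = 6) came from cells with a lentiviral control shRNA and the *Filip1l*-knockdown group (n = 6) from cells with a lentiviral shRNA against *Filip1l*, so the cell line, the lentivirus and the antibiotic selection were shared by both groups, and the cells were mixed clones. The methods describe 2 shRNA sequences against *Filip1l*, and which of them these tumors carried is not stated. The tumors grew under the skin and not in the lung, and a whole tumor also holds host cells. The comparison asks how these genes differ between tumors with and without knockdown of *Filip1l*. CTL and knockdown cells were transduced and selected separately, so knockdown cannot be told apart from other differences between the cell populations. The tests below measure the spread between tumors of a group and do not remove such differences.

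Pulmonary surfactant is a film of lipid and protein that keeps alveoli open. It is assembled by alveolar type 2 cells, which store it in lamellar bodies together with the small hydrophobic proteins SP-B (*Sftpb*) and SP-C (*Sftpc*), whose precursors are cut by proteases such as napsin A (*Napsa*). SP-A (*Sftpa1*) and SP-D (*Sftpd*) are collectins, soluble lectins that bind carbohydrates on microbes. Secretoglobins are small proteins secreted by club cells and other airway cells, and BPIFA1 and BPIFB1 are lipid-binding proteins of airway secretions. The transcription factor NKX2-1 is known to bind the promoters of surfactant protein genes, and it is used with napsin A to identify lung adenocarcinoma.

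The reads that fell on listed genes numbered 17834745 to 29502069 per CTL tumor and 25460564 to 32419578 per *Filip1l*-knockdown tumor, with CTL replicate 5 the shallowest. Values are normalized counts, that is, reads per gene divided by a size factor for each tumor, and 3 reads, used as the floor, were worth 3.15 normalized counts in the mean CTL tumor and 2.91 in the mean *Filip1l*-knockdown tumor. Floors and intervals of read ratios cover counting error only. A gene is called here when its limma adjusted p is under 0.05 over all 15687 genes and its absolute log2 fold change, on the scale of log2(normalized count + 1), is over 1. The targeted gene *Filip1l* stood at 2311 ± 211 normalized counts (mean ± SD, n = 6) in CTL against 1924 ± 165 (n = 6) after knockdown, and its log2 fold change was -0.26 (limma adjusted p = 0.00998). Of the 12 markers of simple epithelium, 7 were called higher and 0 lower, with a median log2 fold change of 1.06. Over all genes, 6.20% were called higher and 3.97% lower. The adherens junction gene *Cdh1* had a log2 fold change of 0.0082 (limma adjusted p = 0.950). *Cdh1* lies on chromosome 8, whose median gene shifted by -0.20, and with chromosome medians removed its log2 fold change was 0.21 (limma adjusted p = 0.0292). The 12 markers summed to 155610 to 203506 normalized counts per CTL tumor against 229712 to 417011 with knockdown. In RNA from a whole tumor, fewer cells of a type and less RNA per cell cannot be told apart.

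The sequences around the transcription start are printed for the 3 genes whose change passed both thresholds, so that the letters of a motif can be read beside the levels. They run from 250 bases before to 50 bases after the annotated start (RefSeq, GRCm38.p6), 5′ to 3′ on the gene's strand, and capitals mark a match to CTCAAG, a core motif of NKX2-1, or to its reverse complement CTTGAG. The *Sftpb* window is chr6:72304360-72304659 (+ strand), the *Scgb3a1* window is chr11:49663345-49663644 (+ strand), and the *Bpifb1* window, for the first of its RefSeq starts, is chr2:154190568-154190867 (+ strand).
Sftpb: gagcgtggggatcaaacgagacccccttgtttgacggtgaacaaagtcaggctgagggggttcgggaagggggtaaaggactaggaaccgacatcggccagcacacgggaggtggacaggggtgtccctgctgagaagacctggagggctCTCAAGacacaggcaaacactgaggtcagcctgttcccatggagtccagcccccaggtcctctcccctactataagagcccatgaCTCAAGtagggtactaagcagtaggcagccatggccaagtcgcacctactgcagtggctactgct
Scgb3a1: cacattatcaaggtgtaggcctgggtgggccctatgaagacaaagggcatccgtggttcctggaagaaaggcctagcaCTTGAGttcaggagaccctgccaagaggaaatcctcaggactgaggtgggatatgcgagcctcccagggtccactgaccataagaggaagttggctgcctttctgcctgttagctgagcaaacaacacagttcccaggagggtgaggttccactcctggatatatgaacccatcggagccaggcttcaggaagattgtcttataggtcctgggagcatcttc
Bpifb1: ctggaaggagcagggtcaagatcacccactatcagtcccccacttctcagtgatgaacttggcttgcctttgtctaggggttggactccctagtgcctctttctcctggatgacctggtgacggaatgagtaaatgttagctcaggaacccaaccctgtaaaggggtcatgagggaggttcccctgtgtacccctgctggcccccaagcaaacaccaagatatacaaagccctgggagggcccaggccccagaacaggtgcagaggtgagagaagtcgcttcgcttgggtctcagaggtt
*Sftpb* held CTCAAG at 2 positions, starting at -100 and -15 relative to the start. *Scgb3a1* held the reverse complement once, at -172. The *Bpifb1* window held neither orientation. The windows were also searched on both strands for the FOXA core TGTTTAC, which none of the 3 held. They were likewise searched for the TATA box letters TATAAA, again with no match. Of 32851 promoter windows of this length, 15.9% held the NKX2-1 letters on either strand, 3.65% the FOXA letters and 13.6% the TATA box letters. A match of letters is a description of the sequence and not a measured binding site.

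Of the 6 genes with a row, 3 were called, against 10.2% of all genes. *Sftpb* and *Scgb3a1* were higher in *Filip1l*-knockdown tumors (6.20% of all genes were called higher) and *Bpifb1* was lower (3.97% of all genes were called lower). An adjusted p under 0.05 at any fold was reached by 4 of the 6, with *Napsa* the fourth, against 41.9% of all genes. The groups did not overlap for 2 of the 6, *Scgb3a1* and *Bpifb1*, against 21.5% of all genes. *Scgb3a1* has a row only through its level in *Filip1l*-knockdown tumors, so it had to differ to be counted. Among the other 5 genes, 2 were called, 3 had an adjusted p under 0.05 and 1 had groups that did not overlap, and the counts of so few genes are given as a description.

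**Figure D1:**
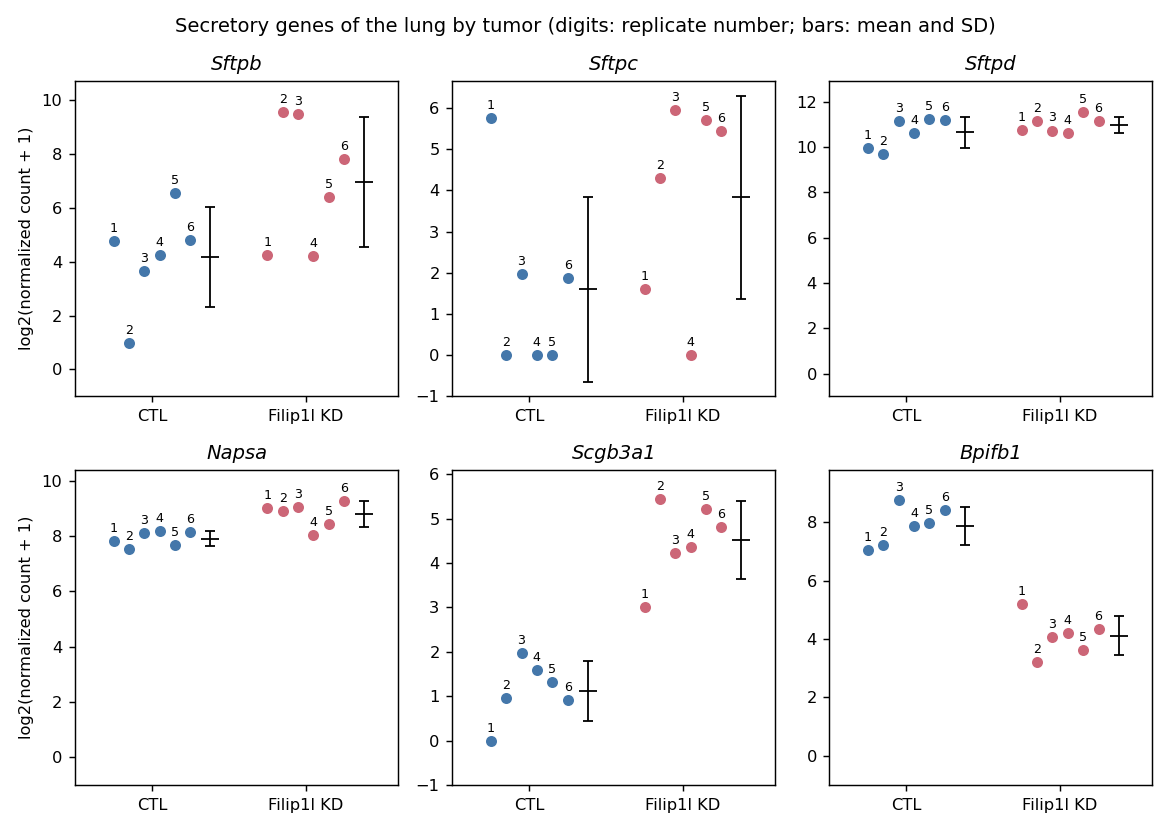
Level of each gene in every tumor, as log2(normalized count + 1) on the vertical axis, with CTL tumors in blue, Filip1l-knockdown tumors in red, digits for the replicate number and black bars for the mean and SD of the 6 tumors of a group. The groups are separate for *Scgb3a1* (0 to 2.92 against 7.06 to 42.7 normalized counts) and for *Bpifb1* (131 to 429 against 8.33 to 35.3), and overlap for the other 4 genes.

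*Sftpb* (ENSMUSG00000056370; GRCm38 chromosome 6, 72304610 to 72314371, + strand) encodes SP-B, a surfactant protein that lamellar bodies need in order to form. CTL replicates 1 to 6 had 26, 0.947, 11.7, 17.9, 94.1 and 27.3 normalized counts, and *Filip1l*-knockdown replicates 1 to 6 had 18.2, 760.0, 714.7, 17.6, 84.7 and 227. In 3 of the 6 *Filip1l*-knockdown tumors (replicates 2, 3 and 6) the level was above every CTL tumor, whereas the other 3 lay within the CTL range. The mean and SD were 29.7 ± 33.0 for CTL and 303.7 ± 345 for *Filip1l*-knockdown tumors (n = 6 each), so the SD exceeded the mean in both groups. The log2 fold change was 2.80 (SE 1.05, limma adjusted p = 0.0463), and by exact permutation (two-sided) p was 0.0606. The call depended on single tumors: it held in 3 of the 12 fits that each left out 1 tumor, which gave log2 fold changes from 2.15 (without CTL replicate 2) to 3.34 (without *Filip1l*-knockdown replicate 4) and limma adjusted p from 0.0163 to 0.106. It was lost without any of CTL replicates 1, 2, 3, 4 and 6 and without any of *Filip1l*-knockdown replicates 2, 3, 5 and 6, with limma adjusted p of 0.106 without *Filip1l*-knockdown replicate 2.

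*Nkx2-1*, the transcription factor named above, was set beside *Sftpb* after its values were seen, so what follows is a description and no p of it is read as support. CTL replicates 1 to 6 had 7.0, 0.947, 7.78, 28.9, 37.3 and 21.2 normalized counts of *Nkx2-1*, and *Filip1l*-knockdown replicates 1 to 6 had 6.05, 90.6, 89.7, 4.90, 9.51 and 35.8. *Filip1l*-knockdown replicates 2 and 3 were the 2 highest of the 12 tumors for both genes, and CTL replicate 2 was the lowest for both. Between the groups *Nkx2-1* did not pass the test (17.2 ± 14.3 against 39.4 ± 40.9 normalized counts, SD, n = 6 each, log2 fold change 0.88, limma adjusted p = 0.443). After group means were removed, the Pearson r of *Nkx2-1* and *Sftpb* over the 12 tumors was 0.94 and the Spearman rho was 0.86. Within CTL tumors r was 0.88 and within *Filip1l*-knockdown tumors 0.98. It was 0.89 without CTL replicate 2 and *Filip1l*-knockdown replicate 2, the tumors farthest from the median of *Nkx2-1*. The total for *Nkx2-1* over the 6 tumors of a group was 94 reads in CTL and 236 in *Filip1l*-knockdown tumors, so its levels rest on few reads.

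In all, 88 such relations were computed, between 22 transcription factors and 4 of the genes, and that of *Nkx2-1* with *Sftpb* had the highest absolute r. After adjustment over the 88, the exact permutation p was under 0.05 for 3 relations by r and for 0 by rho. The relations were added after the values of *Nkx2-1* were seen, which the adjustment does not allow for, so both counts are a description. Next in absolute r were *Spdef*, a factor of secretory epithelium, with *Sftpd* (r = 0.88, rho = 0.80, and r = 0.85 without the 2 tumors farthest from the median) and *Etv4*, an ETS-family factor, with *Sftpb* (r = -0.86, rho = -0.66, and r = -0.77 without the 2 tumors farthest from the median). For *Nkx2-1* with *Napsa* r was 0.57 (rho = 0.46), with *Sftpd* 0.49 (rho = 0.63) and with *Bpifb1* -0.069 (rho = -0.086).

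**Figure D2:**
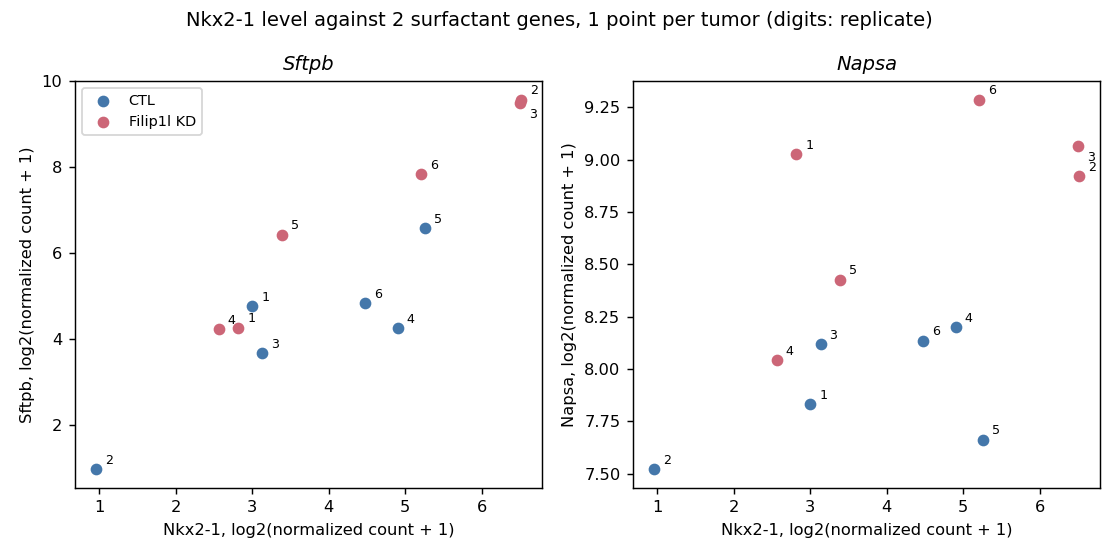
Level of *Nkx2-1* (horizontal axis) against *Sftpb* (left) and *Napsa* (right), all as log2(normalized count + 1), with 1 point per tumor, CTL in blue, Filip1l-knockdown in red and digits for the replicate number. For *Sftpb*, a relation chosen after its values were seen and given as a description, r was 0.94 after group means were removed. Filip1l-knockdown replicates 2 and 3 stand at the upper right and CTL replicate 2 at the lower left. For *Napsa* the Filip1l-knockdown points lie above the CTL points over much of the *Nkx2-1* range.

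*Sftpc* (ENSMUSG00000022097; chromosome 14, 70520949 to 70524081, - strand) encodes SP-C, the surfactant protein most specific to alveolar type 2 cells. CTL replicates 1 to 6 had 53.0, 0, 2.92, 0, 0 and 2.65 normalized counts, and *Filip1l*-knockdown replicates 1 to 6 had 2.02, 18.7, 60.5, 0, 51.0 and 42.8. The level was over the floor of 3 reads in 1 of 6 CTL tumors and in 4 of 6 *Filip1l*-knockdown tumors, and the CTL tumor over the floor, replicate 1, was as high as most of these 4. The means were 9.76 ± 21.2 and 29.2 ± 25.9 normalized counts (SD, n = 6 each). The log2 fold change of 2.23 (SE 1.18) did not pass the test (limma adjusted p = 0.148, exact permutation p = 0.169). Without CTL replicate 1 it was 3.07 (limma adjusted p = 0.0343) and without *Filip1l*-knockdown replicate 4 it was 3.00 (limma adjusted p = 0.0397), so each of these tumors decided the call. The values rest on few reads, 59 in CTL and 186 in *Filip1l*-knockdown tumors.

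*Sftpd* (ENSMUSG00000021795; chromosome 14, 41172214 to 41185149, - strand) encodes the collectin SP-D and was the most abundant of the 6 genes. CTL replicates 1 to 6 had 995, 832, 2279, 1549, 2408 and 2359 normalized counts, and *Filip1l*-knockdown replicates 1 to 6 had 1700.3, 2287, 1687, 1566, 2939.8 and 2227. All but 1 of the *Filip1l*-knockdown values lay inside the CTL range, and CTL replicates 1 and 2 were the lowest of the 12. The means were 1737 ± 712 and 2068 ± 523 (n = 6 each, ± SD), with a log2 fold change of 0.34 (SE 0.26, limma adjusted p = 0.336, exact permutation p = 0.307).

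Both *Sftpc* and *Sftpd* lie on chromosome 14, where the median of 452 genes was raised by 0.38 (log2) in *Filip1l*-knockdown over CTL tumors. The *Sftpd* difference was of the size of that median shift. With the median of each chromosome removed in each tumor, the log2 fold change of *Sftpd* was -0.045 (limma adjusted p = 0.914) and that of *Sftpc* was 1.85 (limma adjusted p = 0.239). For the other 4 genes the median of the chromosome differed between groups by -0.025 to 0.034, and their log2 fold changes moved by less than 0.05. Whether the shift of chromosome 14 had a part in the levels of either gene was not tested.

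**Figure D3:**
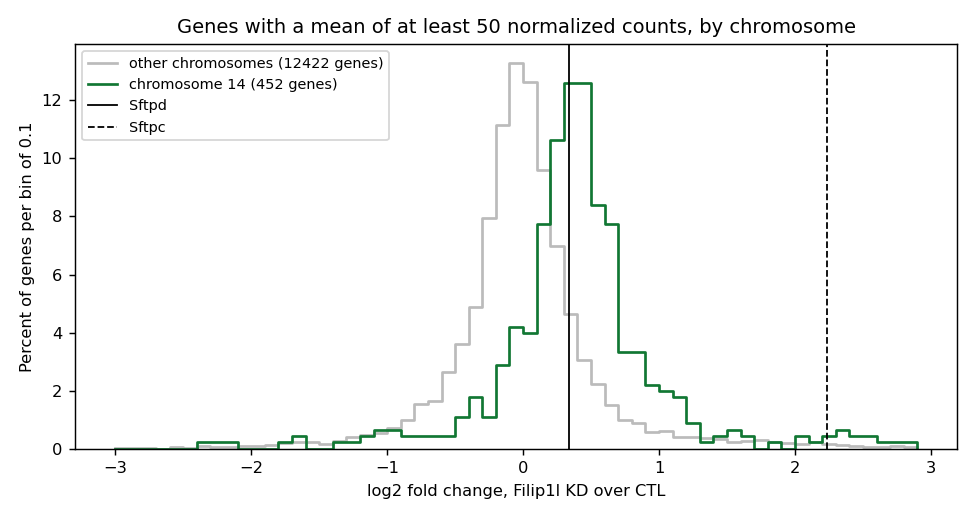
Distribution of log2 fold changes for 452 genes of chromosome 14 (green) and for 12422 genes of the other chromosomes (grey), all with means of 50 normalized counts or more, as the percent of genes per bin of 0.1 between -3 and 3. The green curve is displaced to the right by a median of 0.38, the solid line of *Sftpd* (0.34) stands near its peak, and the dashed line of *Sftpc* (2.23) stands far out in its upper tail. With a mean of 19.5 normalized counts over all tumors, *Sftpc* is not among the genes of the curve, so its place there is not a like comparison.

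*Napsa* (ENSMUSG00000002204; chromosome 7, 44572380 to 44586862, + strand) encodes napsin A, an aspartic protease that takes part in the maturation of SP-B. CTL replicates 1 to 6 had 227, 183, 277, 293, 202 and 280.4 normalized counts, and *Filip1l*-knockdown replicates 1 to 6 had 520.4, 484, 534, 262, 343 and 624. In 5 of 6 *Filip1l*-knockdown tumors the level was above every CTL tumor, and replicate 4 lay inside the CTL range. The means were 244 ± 46.2 and 461 ± 134 (SD, n = 6 each). The log2 fold change was 0.88 (SE 0.20, limma adjusted p = 0.00248, exact permutation p = 0.00866), so *Napsa* rose by the adjusted p and stayed under the fold threshold. Without *Filip1l*-knockdown replicate 4 the log2 fold change was 1.03 (limma adjusted p = 0.000266) and *Napsa* was called. The value lay near the median of the simple epithelium markers (1.06), whose part in it was not tested. *Gm15396* overlaps *Napsa* on the opposite strand and had no row in the table, and because the strand setting of the counting is not stated, reads of the 2 cannot be told apart.

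*Scgb3a1* (ENSMUSG00000064057; chromosome 11, 49663610 to 49665118, + strand) encodes a small secretoglobin of airway secretory cells. CTL replicates 1 to 6 had 0, 0.947, 2.92, 1.99, 1.49 and 0.882 normalized counts, and *Filip1l*-knockdown replicates 1 to 6 had 7.06, 42.7, 17.7, 19.6, 36.3 and 27.1. Every CTL tumor was at or under the floor of 3 reads and every *Filip1l*-knockdown tumor was over it, with replicate 1 the lowest of these. The means were 1.37 ± 1.01 and 25.1 ± 13.0 (SD, n = 6 each), the log2 fold change was 3.39 (SE 0.47, limma adjusted p = 5.43e-05), and the exact permutation test gave p = 0.00216, the smallest it allows with 6 tumors against 6. Because the CTL level is so low, the fitted fold depends on the pseudocount, and the reads are the plainer measure. In all, 158 reads were counted in *Filip1l*-knockdown and 8 in CTL tumors, a ratio of 18.7 after the size factors were taken into account (95% exact interval 9.25 to 44.0). With a mean of 13.2 over the 12 tumors, *Scgb3a1* lay near the lowest mean of any listed gene (9.28), so it is in the table only through its level in the *Filip1l*-knockdown tumors. It had to differ to have a row, so its p-values, interval and calls are a description and not separate support for the difference. Leaving out any 1 tumor kept the call, with log2 fold changes from 3.17 to 3.69.

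*Bpifb1* (ENSMUSG00000027485; chromosome 2, 154190818 to 154220369, + strand) encodes a BPI-fold protein of airway mucus. CTL replicates 1 to 6 had 131, 148, 429, 230.3, 249 and 339 normalized counts, and *Filip1l*-knockdown replicates 1 to 6 had 35.3, 8.33, 15.7, 17.6, 11.2 and 19.2. The lowest CTL tumor was above the highest *Filip1l*-knockdown tumor, and the latter, replicate 1, was also the tumor with the lowest *Scgb3a1* of its group. The mean fell from 254 ± 114 to 17.9 ± 9.44 (n = 6 each, ± SD), with a log2 fold change of -3.77 (SE 0.34, limma adjusted p = 1.60e-06, exact permutation p = 0.00216). In reads this was 1511 in CTL and 111 in *Filip1l*-knockdown tumors, a ratio of 0.0694 after the size factors (95% exact interval 0.0567 to 0.0842). All 6 *Filip1l*-knockdown tumors remained over the floor of 3 reads. No tumor decided this call, since leaving out each in turn gave log2 fold changes from -3.98 to -3.59, all called.

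**Figure D4:**
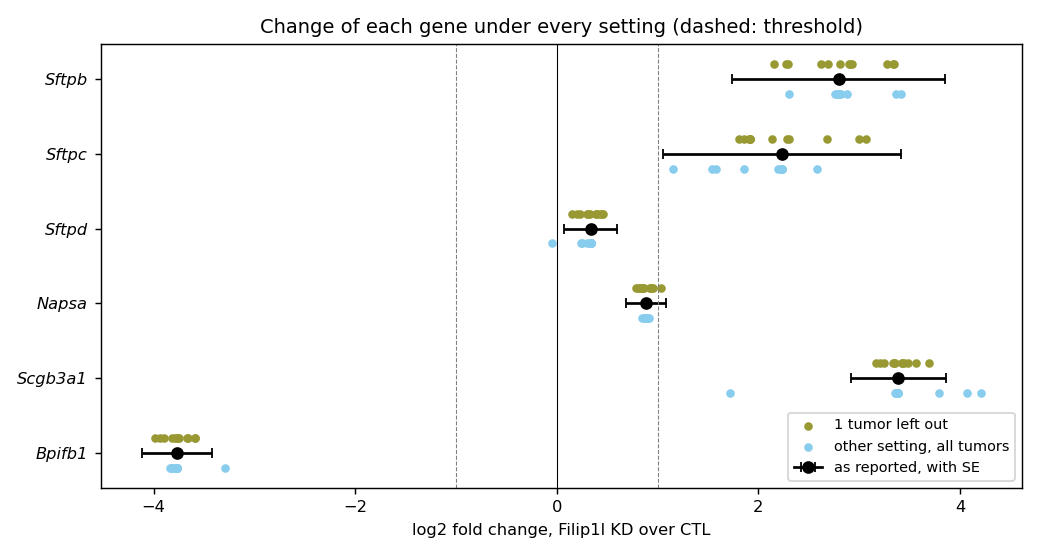
Log2 fold change of *Filip1l*-knockdown over CTL tumors for each gene, with the reported value and its standard error in black, the 12 fits that leave out 1 tumor in olive and the other settings in light blue, and dashed lines at the fold threshold of 1 in either direction. *Bpifb1* stays between -3.98 and -3.30 and *Scgb3a1* between 1.72 and 4.20, *Sftpb* and *Sftpc* are spread widely, and 1 setting takes *Sftpd* below 0.

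Levels were compared between genes per 1000 exon bases. In CTL tumors the order was *Sftpd* (719 ± 295 normalized counts per 1000 bases, SD, n = 6), *Napsa* (91.6 ± 17.4), *Bpifb1* (70.3 ± 31.5), *Sftpb* (15.1 ± 16.8), *Sftpc* (9.44 ± 20.5) and *Scgb3a1* (2.29 ± 1.69). In *Filip1l*-knockdown tumors it was *Sftpd* (856 ± 216), *Napsa* (173 ± 50.2), *Sftpb* (154 ± 175), *Scgb3a1* (41.9 ± 21.8), *Sftpc* (28.2 ± 25) and *Bpifb1* (4.95 ± 2.61). *Bpifb1* thus stood at place 3 in CTL tumors and at place 6 in *Filip1l*-knockdown tumors. In both groups the ranges of *Sftpd* and *Napsa* did not overlap, and those of every other pair of neighbours did. Within a tumor, *Napsa* exceeded *Bpifb1* in 5 of 6 CTL tumors, and *Sftpb* exceeded *Scgb3a1* in 3 of 6 *Filip1l*-knockdown tumors. *Sftpd*, whose product is also made by epithelia outside the lung, was the highest of the 6 in both groups.

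The 4 genes over the floor in at least 10 of the 12 tumors (*Sftpb*, *Sftpd*, *Napsa* and *Bpifb1*) were also compared with each other after group means were removed. None of the 6 pairs passed (exact permutation p from 0.105 to 0.476 for r and from 0.0619 to 0.763 for rho, adjusted 0.416 to 0.476 and 0.372 to 0.763). *Sftpb* had r = 0.47 with *Sftpd* (rho = 0.60), r = 0.45 with *Napsa* (rho = 0.31) and r = -0.24 with *Bpifb1* (rho = -0.23). *Sftpd* and *Napsa* had r = 0.26 (rho = 0.14), and *Napsa* and *Bpifb1* had r = 0.36 (rho = 0.37). *Sftpd* and *Bpifb1* had r = 0.36 (rho = 0.11), with r = 0.89 in CTL and r = -0.59 in *Filip1l*-knockdown tumors. Without the 2 tumors farthest from the median of the first gene, r was 0.67 for *Sftpb* with *Sftpd*, 0.37 for *Sftpb* with *Napsa* and 0.37 for *Napsa* with *Bpifb1*, and it changed sign in the other 3 pairs. Across individual tumors the surfactant and airway genes thus showed no joint variation that passed a test.

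The genes whose pattern was most like each of the 4, among 12887 genes whose mean reached 50 normalized counts, are given with r over the 12 tumors after group means were removed and with no test. For *Sftpb* they were *Acer2* (0.95), *Ros1* (0.90), which encodes a receptor tyrosine kinase, and *Cx3cl1* (0.89), which encodes a chemokine. For *Sftpd* they were *Tmem150b* (0.96), *Mapk13* (0.95) and *Tmprss4* (0.95), the last a membrane serine protease. For *Napsa* they were *Postn* (0.92), an extracellular matrix gene, *Ighm* (0.92), the heavy chain of IgM, and *Ccr7* (0.92), a chemokine receptor of lymphocytes and dendritic cells. For *Bpifb1* they were *Jpx* (0.91), *Slc22a4* (0.89) and *Jarid2* (0.89).

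The other genes that make, store or process surfactant were spread in both directions. Of 18 listed, 15 had a row, and their median log2 fold change was 0.063 beside 0.0078 over all genes. Of these 15, 1 was called higher and 1 lower, beside 6.20% and 3.97% of all genes. *Abca3*, the lipid transporter of lamellar bodies, rose from 2999 ± 244 to 4987 ± 505 normalized counts (n = 6 each). Its log2 fold change of 0.73 (limma adjusted p = 3.92e-06) stayed under the fold threshold, as that of *Napsa* did. *Rab27a*, a small GTPase of secretory vesicles, was called higher (log2 fold change 1.19, limma adjusted p = 9.98e-06), and *Adgrf5*, a receptor that holds surfactant pools in check, was called lower (log2 fold change -1.38, limma adjusted p = 6.80e-06). An adjusted p under 0.05 at any fold was reached by 5 higher and 2 lower genes, beside 41.9% of all genes in either direction. Those not yet described were *Pgc*, *Pcyt1a* and *Dram1* (higher) and *Lpcat1* (lower), which are named after their values were seen. *Lamp3*, a lamellar body marker of alveolar type 2 cells, had no row.

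The relatives of these genes were sparse in the table. None of the 8 other secretoglobins listed had a row, so *Scgb3a1* was the only secretoglobin of the 11 listed that could be measured. Of 14 other BPI-fold and lipid-binding relatives, 2 had a row, *Lbp* (log2 fold change -0.21, limma adjusted p = 0.0886) and *Pltp* (log2 fold change 0.51, limma adjusted p = 0.00891), and neither was called. *Colec12* was the single other collectin of 5 with a row (log2 fold change -0.69, limma adjusted p = 0.0238). Of 8 other aspartic proteases 6 had a row, and *Bace2*, a membrane protease, was called higher (log2 fold change 1.53, limma adjusted p = 6.69e-05). Over all genes 6.20% were called higher.

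Among 23 transcription factors listed for the epithelium of lung or lung tumors, 22 had a row, 0 were called higher and 3 lower, with a median log2 fold change of -0.043 (over all genes 6.20% were called higher and 3.97% lower). The list includes *Hnf4a*, which the authors name in a gene signature of invasive mucinous lung adenocarcinoma (log2 fold change 0.14, limma adjusted p = 0.152). At any fold an adjusted p under 0.05 was reached by 1 higher factor, *Klf5* (log2 fold change 0.82, limma adjusted p = 9.32e-06, named after its values were seen), and by 9 lower, beside 41.9% of all genes in either direction. The called factors were *Sox2*, a factor of the airway lineage (406 ± 161 to 35.6 ± 19.7 normalized counts, SD, n = 6 each, log2 fold change -3.50, limma adjusted p = 7.40e-06), *Foxj1*, the factor of ciliated cells (log2 fold change -1.85, limma adjusted p = 9.82e-06), and *Etv5*, a factor of alveolar type 2 cells (log2 fold change -1.06, limma adjusted p = 4.22e-07). *Etv5* was at -0.99, under the fold threshold, without *Filip1l*-knockdown replicate 6. *Foxa1*, a pioneer factor of lung epithelium, had a log2 fold change of 0.10 (limma adjusted p = 0.484), and its relative *Foxa2* fell by 0.46 on the log2 scale (limma adjusted p = 0.000395) without being called.

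The markers of the cells that make these proteins were mixed, and each count is to be read beside the 6.20% of all genes called higher and the 3.97% called lower. Of 20 club cell genes 13 had a row, 6 were called higher and 0 lower, with a median log2 fold change of 0.94, and their sum was 5254 to 10114 normalized counts per CTL tumor against 15905 to 27833 with knockdown. The called genes with a mean of at least 50 were *Reg3g* (2.70), an antimicrobial lectin, *Pigr* (2.43), the receptor that carries IgA across epithelium, *Selenbp1* (1.21) and *Gstm2* (1.20), and the other 2, of lower level, were *Ces1d* (1.75) and *Chad* (1.73). The CTL mean of *Chad* (7.74) was under the lowest mean of any listed gene (9.28). Like *Scgb3a1*, *Chad* thus has a row only through its level in *Filip1l*-knockdown tumors (mean 29.5) and had to differ to be counted. *Cyp2f2*, the P450 that marks club cells, did not pass the test (14.9 against 10.6 normalized counts, log2 fold change 0.36, limma adjusted p = 0.778), and its direction turned in 4 of the other settings and fits. With *Scgb1a1* and *Scgb3a2* without a row, the defining secreted products of club cells were not measured, and *Reg3g*, *Pigr*, *Selenbp1* and *Gstm2* are also made by other epithelia.

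**Figure D5:**
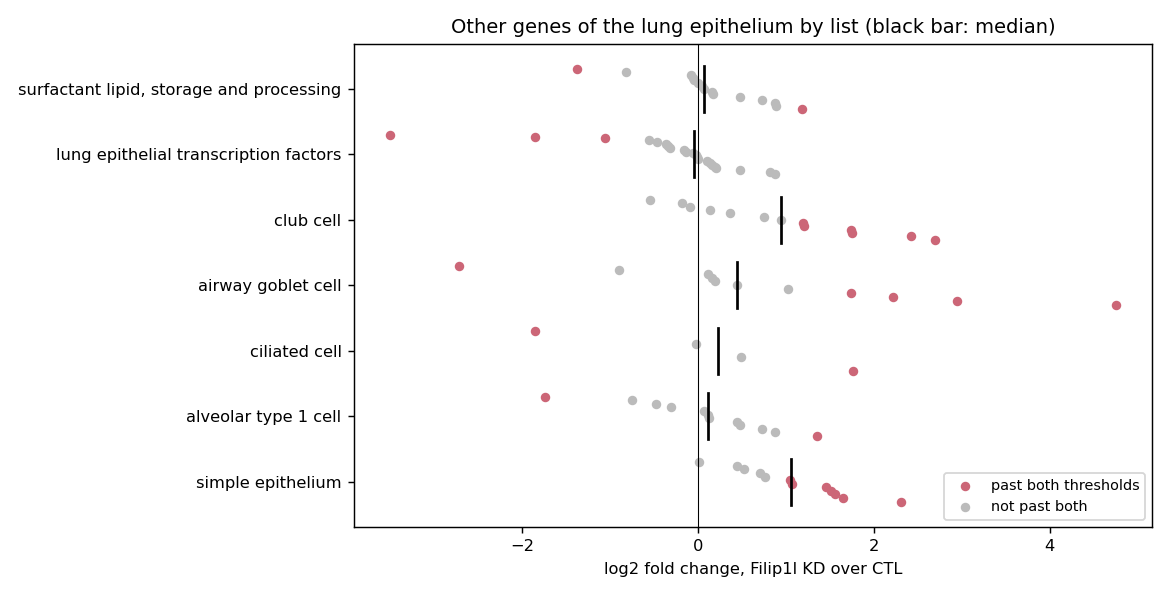
Log2 fold change of *Filip1l*-knockdown over CTL tumors for each measured gene of 7 lists, red where past both thresholds, grey where not, with a black bar at the median of the list. Club cell and simple epithelium genes lie mostly to the right (medians 0.94 and 1.06), the surfactant and transcription factor lists are centred near 0 (medians 0.063 and -0.043), and the goblet list spreads in both directions.

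Of 12 airway goblet cell genes 11 had a row, 4 were called higher and 1 lower, with a median log2 fold change of 0.44. Their summed level was 30441 to 111930.0 normalized counts in CTL tumors against 140579 to 384996 in *Filip1l*-knockdown tumors. Most of that sum was *Dmbt1* alone (26874 to 100150 against 134960 to 362350). The 6 genes not called included the mucins *Muc5ac* (-0.90, limma adjusted p = 0.351) and *Muc5b* (0.44, limma adjusted p = 0.336). They also included the factors *Spdef* (0.19, limma adjusted p = 0.805) and *Foxa3* (0.15, limma adjusted p = 0.606). *Agr2*, a disulfide isomerase of mucus-producing cells, was called higher (4.75), as were *Clca1* (2.94), *Dmbt1* (2.22) and *Fcgbp* (1.74), and *Tff2*, a trefoil peptide, was called lower (-2.72). Of 12 ciliated cell genes 4 had a row, with *Tppp3* called higher (1.76) and *Foxj1* lower. All 12 alveolar type 1 genes had a row, with 1 called higher (*Clic5*, 1.35) and 1 lower (*Aqp5*, -1.74), and *Ager*, the defining receptor of these cells, had 22.9 ± 11.1 against 39.3 ± 13.4 normalized counts (n = 6 each, ± SD; limma adjusted p = 0.0735). Of 14 alveolar macrophage genes, the cells that clear surfactant, 12 had a row and 4 were called higher, *Plet1* (1.57), *Siglecf* (1.34), *Cidec* (1.15) and *Fabp4* (1.02). The other 8 with a row were not called, and none of 10 general macrophage genes was called. *Fabp4* is also on the list of adipocyte genes, so these calls do not show that alveolar macrophages were present. *Fabp4* stood close to the fold threshold and fell under it without any of CTL replicates 2, 5 and 6 or of *Filip1l*-knockdown replicates 1 and 3. *Ces1d*, *Chad*, *Muc5ac*, *Muc5b*, *Spdef*, *Foxa3*, *Fcgbp*, *Siglecf* and *Cidec* are named after their values were seen.

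Lists of other cells and tissues were read beside the same shares of all genes. Of 10 skeletal muscle genes 8 were called higher, with a median log2 fold change of 1.83 and a summed level of 2460.2 to 12949 normalized counts in CTL and 5423 to 95119 in *Filip1l*-knockdown tumors. Of 5 measured adipocyte genes 3 were called higher (*Cidea*, *Fabp4* and *Lpl*, median 1.30), and of 6 measured skin genes 1 was called lower (*Lor*, median 0.14). None of the 10 macrophage genes was called (median 0.090, with 2 higher at an adjusted p under 0.05, *Cd68* and *Cd14*). None of the 9 fibroblast genes was called (median -0.56, with 3 lower at an adjusted p under 0.05, *Col1a1*, *Col1a2* and *Thy1*), and the 5 genes last named were named after their values were seen. Of 11 measured gastric epithelium genes 3 were called higher (*Gkn1*, *Gkn2* and *Anxa10*) and 1 lower (*Tff2*), with a median of -0.20. The call of *Gkn1* (log2 fold change 3.06, limma adjusted p = 0.0472) held in 3 of 12 fits made without 1 tumor, with limma adjusted p up to 0.104. It was lost without any of CTL replicates 1, 2, 3 and 4 and without any of *Filip1l*-knockdown replicates 2 to 6. The part of any of these lists in the levels of the surfactant, secretoglobin and BPI-fold genes was not tested.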

How the data were processed

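RNA from 12 mouse allograft tumors (6 CTL, 6 *Filip1l*-knockdown, grouped by their labels, which call them biological replicates) was selected with oligo dT and sequenced. Per the submitters' processing notes and the methods, reads were trimmed with Trimmomatic 0.36, aligned to mm10 with STAR 2.5.2b and counted per gene with featureCounts of Subread 1.5.2. The authors deposited counts divided by DESeq2 size factors, a normalized signal without correction for gene length, for 15687 genes with means of 9.28 or more. They compare 1 gene between tumors, and genes with each other only per 1000 exon bases.

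Log2(value + 1) was compared with limma 3.58.1 (variance trend, Benjamini-Hochberg adjustment over all genes) in R 4.3.3, after a filter at a mean of 5 that removed 0 genes, with exact two-sided permutation tests for single genes. Thresholds followed the methods (adjusted p under 0.05, log2 fold change beyond 1 in either direction). Correlations used all 518400 rearrangements within groups. Values were whole multiples of a step per tumor (100% within 0.01 of a whole read), so whole reads were recovered for edgeR 4.0.16 and DESeq2 1.42.0 as alternatives. Other alternatives were pseudocounts of 0.5 and 8, no filter or one at 20, rescaling, no trend, chromosome medians removed, a replicate block and leaving out each tumor. On simulated data for this comparison, 200 of 15687 genes were changed, all by more than the fold threshold. Of these 188 (94%) were called, and 1 unchanged gene was. Smaller changes were not simulated.

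Positions and exon lengths came from GENCODE vM21 on GRCm38, where 15661 identifiers were found. RefSeq promoter windows were found for *Sftpa1*, *Sftpb*, *Scgb3a1*, *Bpifa1* and *Bpifb1*. The genes and lists were chosen with earlier results of these data known. Named genes are all 10, at most 4 called genes per list with a mean of at least 50 and the largest change, genes that define a tissue, *Filip1l*, and the 3 genes most like each; others were named after their values were seen. The relations with transcription factors were added after seeing the values of *Nkx2-1*. Columns of per-sample values not used numbered 0.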

Additional observations from a re-analysis of the deposited data

Results flagged for a closer look

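Dixon's test was made on normalized counts and not on the log2 scale of the fits. In 2 of 12 sets of 6 values (6 genes in each group), 1 tumor stood apart from the rest of its group. The chance rate of about 1 in 20 assumes normally distributed values, so it need not hold for these skewed counts. The gaps are given as a description. *Sftpb* was at 94.1 normalized counts in CTL replicate 5, a gap of 0.717 of the range of the group, and this tumor was the shallowest of the 12. *Sftpc* was at 53.0 normalized counts in CTL replicate 1, a gap of 0.945 of the range, where the other 5 CTL tumors were at or under the floor of 3 reads. Without CTL replicate 5 the log2 fold change of *Sftpb* was 3.28 (limma adjusted p = 0.0265), and without CTL replicate 1 that of *Sftpc* was 3.07 (limma adjusted p = 0.0343).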

How the results depend on the processing

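*Scgb3a1* and *Bpifb1* were called in the same direction in the reported fit and in every alternative to it. The alternatives numbered 23 for *Bpifb1* and 22 for *Scgb3a1*, since a filter at a mean of 20 left out *Scgb3a1* and *Sftpc*. *Scgb3a1* has a row only through its level in *Filip1l*-knockdown tumors, so its steady call is not separate support for the difference. Log2 fold changes over settings that kept all tumors ran from -3.84 to -3.30 for *Bpifb1*, from 1.72 (pseudocount 8) to 4.20 for *Scgb3a1*, from 2.30 to 3.41 for *Sftpb*, from 1.15 to 2.58 for *Sftpc* and from 0.84 to 0.92 for *Napsa*. The count of genes called higher was 2, and it was 1 with the filter at 20, 1 without a variance trend, 1 with a replicate block and 1 to 4 when a tumor was left out. The count called lower was 1 throughout. *Sftpb* kept its log2 fold change of 2.80 and lost its call without a trend (limma adjusted p = 0.0714) and with the replicate block (limma adjusted p = 0.0830), while edgeR (3.41, adjusted p = 0.0128) and DESeq2 (3.36, adjusted p = 0.00317) called it. Leaving out 1 tumor gave 2.15 to 3.34 for *Sftpb*, 1.81 to 3.07 for *Sftpc*, 0.15 to 0.45 for *Sftpd* and 0.78 to 1.03 for *Napsa*. Removing chromosome medians turned *Sftpd* to -0.045. Without the 2 tumors farthest from the median, the correlation turned to 0.020 for *Sftpb* with *Bpifb1*, to -0.072 for *Sftpd* with *Napsa* and to -0.31 for *Sftpd* with *Bpifb1*; the cause was not tested. Over all genes 1596 were called, 1352 to 1652 under other settings, 1554 with the replicate block and 1513 to 1712 when a tumor was left out. The numbers do not pair the tumors (correlations of same-numbered tumors -0.280 to 0.0796), and the block changed no other call among the 6 genes. For genes outside the 10, direction turned in *Cyp2f2* and *Cdh1*, neither of which passed in the reported fit, and calls were lost for *Gkn1* (kept in 3 of 12 fits without 1 tumor and in 7 of 10 other settings), *Fabp4* (7 of 12 and 8 of 10) and *Etv5* (11 of 12 and 10 of 10). Depth limits the CTL levels of *Sftpc* and *Scgb3a1*, which rest on 59 and 8 reads.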
